A study of Mus musculus with 9 samples.

Results

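The genes described here are the transcription factors Stat5a and Stat5b, the kinases Pim1, Pim2 and Pim3, the feedback inhibitors Cish, Socs1, Socs2 and Socs3, and the cytokine oncostatin M (Osm). They were chosen by symbol, as 10 of the 24756 rows of the count table, with earlier results of these data known. Their counts beside the shares of all tested genes are therefore descriptive. The data are 3'-end RNA-seq (QuantSeq) libraries of 1 mouse acute myeloid leukaemia line, made from foetal liver cells with a pair of retroviral vectors. MSCV-Luc2-IRES-MLL-AF9 expresses luciferase and the fusion oncoprotein MLL-AF9 constitutively, in all groups, and TRE-tight-DsRED-IRES-FLT3-ITD expresses a red fluorescent protein and FLT3-ITD only while doxycycline is present. The ON group (n = 3) was kept in 1 µg/mL doxycycline, and the OFF24 and OFF48 groups (n = 3 each) were cultured for 24 h and 48 h after its removal. All libraries came from that single line, and the labels do not say whether they came from separate cultures, so a p-value here sets a difference against library-to-library spread that may be technical only.

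FLT3-ITD is a receptor tyrosine kinase that signals without ligand through an internal tandem duplication, and in myeloid cells the mutant receptor is known to phosphorylate STAT5. Phosphorylated STAT5 dimers enter the nucleus and activate genes whose regulatory regions hold paired TTC and GAA half-sites. Among the known targets are the PIM serine/threonine kinases, which promote survival and translation, and CIS and SOCS proteins, which bind receptors or JAK kinases and so restrain the signal that induced them. Oncostatin M is a secreted IL-6 family cytokine whose gene is also induced by STAT5. RNA levels report on none of the phosphorylation steps.

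Promoter windows, from 250 bases before to 50 bases after a RefSeq transcript start on GRCm38.p6, were found for 8 of the 10 genes. They were searched for TTCNNNGAA, the half-site spacing of a STAT5 element, whose reverse complement has the same form, so that both strands were covered. The letters were present in the windows of 2 of these genes, Cish and Socs3, and in 8.3% of all 32851 windows. The 8 genes had 11 windows in all, so a share of genes is not directly comparable with that share of windows. The 2 matches of Cish lay at bases 1 and 12 after its start, and 0.457% of all windows held at least 2 matches. The match of Socs3 began at base -154, counted back from the start. Both stretches are shown 5' to 3' with the matches in capitals, because these are the 2 genes with a match, of which Cish changed in the counts and Socs3 had too few to be tested. The Cish stretch is chr9:107296479-107296678 on the plus strand, with 180 bases before the start and 20 after it, and the Socs3 stretch is chr11:117969367-117969566 on the minus strand, ending at the last base before the start. A match describes the sequence and says nothing of STAT5 binding in these cells.
Cish: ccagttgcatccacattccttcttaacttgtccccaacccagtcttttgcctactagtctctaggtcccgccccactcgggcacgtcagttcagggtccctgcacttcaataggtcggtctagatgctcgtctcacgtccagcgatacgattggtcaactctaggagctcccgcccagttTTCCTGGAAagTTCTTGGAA
Socs3: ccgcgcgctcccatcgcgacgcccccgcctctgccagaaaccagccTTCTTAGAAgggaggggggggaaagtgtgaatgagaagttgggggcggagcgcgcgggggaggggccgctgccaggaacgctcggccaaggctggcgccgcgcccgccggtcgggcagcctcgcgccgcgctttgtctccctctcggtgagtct

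Library totals ran from 1329296 counts (OFF48 replicate 2) to 4038456 (ON replicate 2), so that 3 counts, taken as the limit of detection for counting error only, corresponded to 2.26 down to 0.743 CPM (counts scaled to a common library size of 1e6). ON replicate 2 stood apart from the other ON libraries, with a chi-square per degree of freedom of 6.66 and 6.99 against them, compared with 2.10 between those libraries. The same measure was 1.99 to 3.235 between OFF24 libraries and 4.25 to 5.46 between OFF48 libraries, so the spread in OFF48 was not confined to 1 library. Counts of mouse Flt3 were 2 to 10 per library, and a transcript of the vector need not end in the mouse gene, so the counts do not check the loss of FLT3-ITD. The myeloid markers Hoxa9, Spi1, Itgam and Cebpa were present in every group, while Kit averaged 0.896, 1.82 and 3.58 CPM in ON, OFF24 and OFF48. Of the 7 tested myeloid markers, 5 were higher than ON at each time (edgeR adjusted p under 0.05). Among all tested genes 17.8% were higher at 24 h and 23.4% at 48 h. Summed over 8 myeloid markers, the level was 1457 to 1632 CPM in ON, 2167 to 2296 in OFF24 and 2389 to 2911 in OFF48. Mpo, the granule enzyme myeloperoxidase, made the largest part of that difference, with means of 69.1, 341 and 759 CPM. Of the other cell types, 9 erythroid markers summed to 79.4 to 125 CPM over all libraries, nearly all of it Tfrc, with Epor and both beta-globin genes at 0. For megakaryocytes, mast cells and basophils together, 8 markers gave 68.1 to 96.2 CPM, mostly Gp1bb, with Cpa3 and Fcer1a at 0. The 8 lymphoid markers reached at most 1.57 CPM. The 8 hepatocyte and stroma markers summed to 25.8 to 35.5 CPM in ON, 43.1 to 58.4 in OFF24 and 54.0 to 62.4 in OFF48, almost all from Pecam1, with Alb and Ttr at 0. The part of these marker differences in the results below was not tested, and in bulk RNA fewer cells that express a gene and less RNA per cell cannot be told apart.

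After removal of doxycycline, 6 of the genes were lower at both times: Pim1, Pim3, Cish, Socs1, Socs2 and Osm. Stat5b was higher at both times, Stat5a and Pim2 did not pass the test, and Socs3 had too few counts to be tested. At 24 h 6 of the 9 tested genes fell and 1 rose by edgeR's quasi-likelihood test (adjusted p under 0.05 over all 10215 tested genes), where 17.4% of all tested genes were lower, 17.8% higher and 35.3% called in either direction. At 48 h the numbers were again 6 and 1, against 23.9% lower, 23.4% higher and 47.4% in either direction among all tested genes. The median log2 fold change of the 9 genes was -1.137 at 24 h and -2.32 at 48 h, beside 0.031 and 0.014 for all tested genes. Groups did not overlap for 7 of the 9 at 24 h and 6 of the 9 at 48 h, shares to be read beside 49% and 52.5% of all tested genes. Both comparisons use the same ON libraries. Without replicate 2 of every group, an alternative added after ON replicate 2 was seen to stand apart, 6 genes remained lower and 1 higher at each time.

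**Figure D1:**
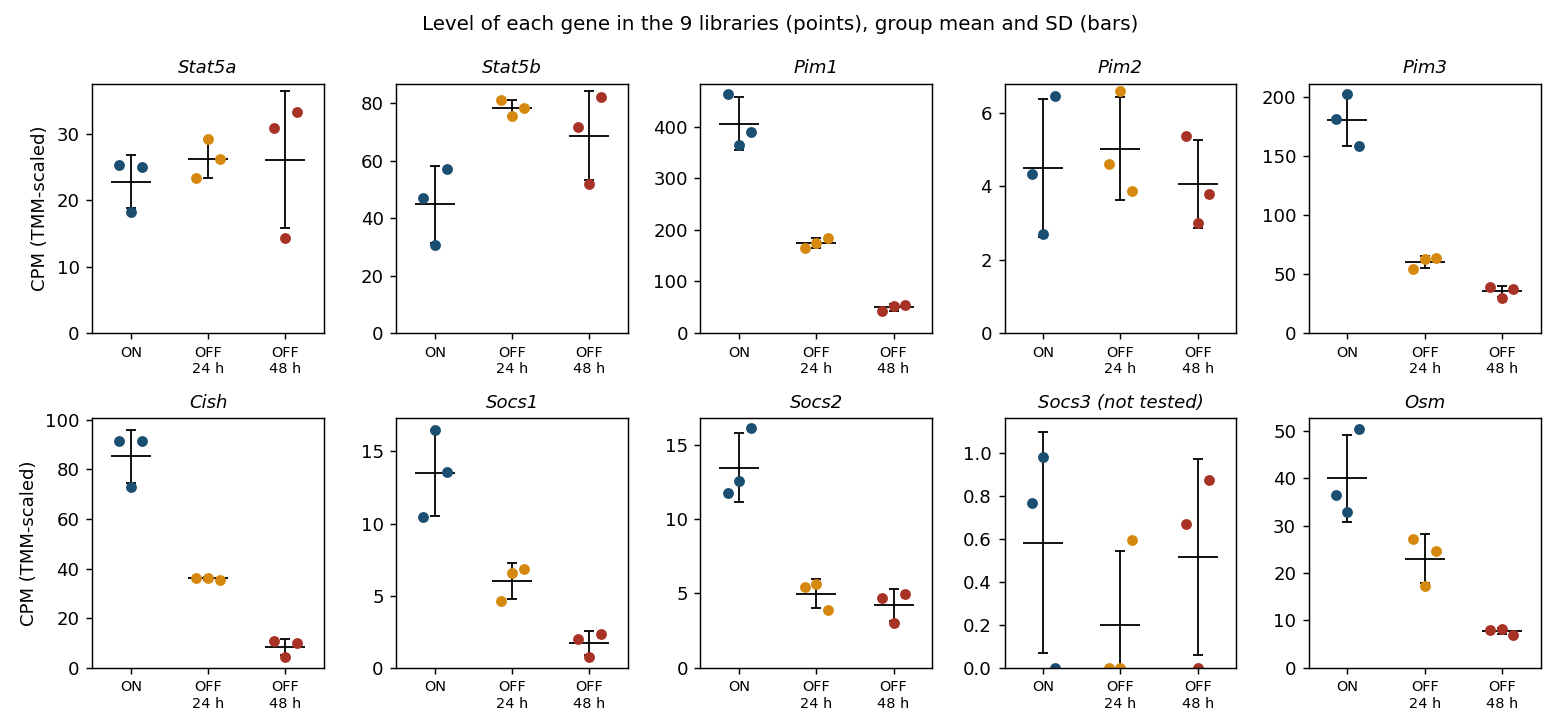
Level of each gene in CPM (vertical axes, linear and starting at 0, with a scale per gene) in the 3 libraries of each group; points are libraries, horizontal bars the group mean and whiskers the SD. The ON points of Pim1, Pim3, Cish, Socs1, Socs2 and Osm lie above all OFF24 and OFF48 points, those of Stat5b lie below all OFF24 points, and Socs3 stays under 1 CPM.

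Stat5a and Stat5b lie side by side on chromosome 11 (mm10, GENCODE M21: Stat5a at 100859351-100885169 on the plus strand, Stat5b at 100780731-100850724 on the minus strand) and encode the closely related factors that carry the STAT5 signal. Stat5b stood at 46.9, 30.5 and 56.9 CPM in the ON libraries, 81.1, 75.6 and 78.3 in OFF24, and 71.8, 51.7 and 82.2 in OFF48. Every OFF24 library was above every ON library, whereas the lowest OFF48 library, replicate 2, fell within the ON range. Stat5b rose from 44.8 ± 13.4 (SD, n = 3) to 78.4 ± 2.73 CPM at 24 h, a log2 fold change of 0.83 ± 0.19 (SE, edgeR adjusted p = 0.00294), and reached 68.6 ± 15.5 CPM at 48 h (0.68 ± 0.19, edgeR adjusted p = 0.00844). The lowest ON value came from the library that stands apart. Without ON replicate 2 the log2 values were 0.58 (edgeR adjusted p = 0.00620) and 0.45 (edgeR adjusted p = 0.0218). Leaving out OFF48 replicate 3 ended the call at 48 h, at 0.53 (edgeR adjusted p = 0.0605).

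Stat5a had 25.3, 18.2 and 25.05 CPM in ON, 23.4, 29.2 and 26.2 in OFF24, and 30.9, 14.2 and 33.2 in OFF48. The groups overlapped at each time, and OFF48 replicate 2, the shallowest library with 19 counts of the gene, held the lowest value of all. The log2 fold change was 0.22 (95% interval -0.22 to 0.66, edgeR adjusted p = 0.442) at 24 h and 0.31 (-0.14 to 0.76, edgeR adjusted p = 0.253) at 48 h. Without OFF48 replicate 2 it was called higher at 48 h, at 0.50 (edgeR adjusted p = 0.0246). The end of Stat5a overlaps that of Stat3 on the opposite strand by 72 bases, and the strand setting of the counting is not given in the sources used here, so reads at that end may not be separable. Neither Stat5 gene differed between OFF48 and OFF24, with edgeR adjusted p-values of 0.820 for Stat5a and 0.612 for Stat5b.

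The 3 PIM kinases did not move alike. Pim1 (chromosome 17, 29490753-29496112, plus strand), the kinase named for proviral integration sites in lymphomas, had 462, 364 and 390 CPM in the ON libraries, 166, 174 and 185 in OFF24, and 42.6, 53.2 and 54.5 in OFF48. The groups formed 3 separate steps, with each OFF48 library below each OFF24 library. Pim1 fell, with a log2 fold change of -1.21 ± 0.11 (SE, edgeR adjusted p = 1.86e-07) at 24 h and -3.02 ± 0.13 (edgeR adjusted p = 1.48e-12) at 48 h, to 12.4% of its ON mean. It ranked as the 77th lowest log2 fold change and the 10th smallest p of the 10215 tested genes at 48 h.

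Pim3 (chromosome 15, 88862186-88865726, plus strand), a close relative of Pim1, stood at 182, 203 and 159 CPM in ON, 54.3, 62.5 and 63.4 in OFF24, and 39.3, 30.0 and 37.0 in OFF48. The 3 groups did not overlap, and most of the drop lay in the first interval. The log2 fold change was -1.59 ± 0.12 (edgeR adjusted p = 1.66e-08) at 24 h and -2.32 ± 0.13 (edgeR adjusted p = 7.97e-11) at 48 h. The level at 48 h was 19.6% of the ON mean.

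Pim2 (chromosome X, 7878262-7883432, plus strand), the third PIM kinase, had 4.34, 2.70 and 6.44 CPM in ON, 4.60, 6.59 and 3.87 in OFF24, and 5.37, 3.00 and 3.79 in OFF48. The groups overlapped throughout, and no library had more than 21 counts. The log2 fold change was 0.22 (95% interval -0.54 to 0.97, edgeR adjusted p = 0.670) at 24 h and -0.027 (-0.84 to 0.79, edgeR adjusted p = 0.963) at 48 h, intervals that lie within a 2-fold change in either direction. The end of a short Pim2 transcript matches 2 other gene models, Gm21182 and Gm7645, at 95% identity or more, so its counts are uncertain.

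Cish encodes CIS, an SH2 protein that binds activated cytokine receptors at sites used by STAT5 (chromosome 9, 107296026-107302784, plus strand, a gene start upstream of the RefSeq start used for the promoter stretch). It had 91.6, 73.0 and 91.2 CPM in ON, 36.4, 36.1 and 35.4 in OFF24, and 10.7, 4.50 and 9.91 in OFF48. The OFF24 libraries were close to each other, and the groups did not overlap at any step. Cish fell, with a log2 fold change of -1.24 ± 0.14 (SE, edgeR adjusted p = 2.44e-06) at 24 h and -3.21 ± 0.18 (edgeR adjusted p = 8.83e-11) at 48 h, to 9.83% of its ON mean. This was the 72nd lowest log2 fold change of all tested genes and the lowest of the 9 described here. The end of a Cish transcript shares sequence with the antisense model Gm17041, and without the strand setting the reads of the 2 cannot be told apart.

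Socs1 (chromosome 16, 10782240-10785536, minus strand), whose product inhibits JAK kinases directly, had 10.5, 16.5 and 13.6 CPM in ON, 4.60, 6.59 and 6.85 in OFF24, and 2.01, 0.750 and 2.33 in OFF48. The groups were again separate at each step, although the OFF48 values rested on 6, 1 and 8 counts, the second of them below the limit of 3 counts. Socs1 fell, with a log2 fold change of -1.137 ± 0.26 (edgeR adjusted p = 0.00227) at 24 h and -2.79 ± 0.34 (edgeR adjusted p = 1.96e-06) at 48 h. At 48 h its mean was 12.6% of that in ON.

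Socs2 (chromosome 10, 95385362-95417180, minus strand), a STAT5 target best known as a restraint on growth hormone signalling, had 11.7, 12.5 and 16.1 CPM in ON, 5.43, 5.65 and 3.87 in OFF24, and 4.70, 3.00 and 4.96 in OFF48. Both OFF groups lay below ON and overlapped each other. The log2 fold change was -1.42 ± 0.26 (edgeR adjusted p = 0.000279) at 24 h and -1.56 ± 0.27 (edgeR adjusted p = 9.77e-05) at 48 h. The end of a short Socs2 transcript matches the models Gm8000 and Gm9847, so part of its counts may be theirs.

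Socs3 (chromosome 11, 117966079-117970047, minus strand), the family member that acts mainly on gp130 receptors and STAT3, had 3, 4 and 0 counts in ON, 0, 0 and 2 in OFF24, and 2, 0 and 3 in OFF48. No library had more than 4 counts, and a change in Socs3 was not detectable at this depth. It did not pass the filter on low counts, although its promoter stretch holds the searched letters. As for Cish, the annotated gene start lies upstream of the RefSeq start used for that stretch, which falls within the annotated gene.

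Osm (chromosome 11, 4236420-4241026, plus strand), the 1 secreted ligand among these genes, had 36.5, 32.9 and 50.5 CPM in ON, 27.2, 17.3 and 24.7 in OFF24, and 8.05, 8.25 and 6.998 in OFF48. The groups did not overlap, and the OFF48 libraries were close together. Osm fell, with a log2 fold change of -0.79 ± 0.18 (SE, edgeR adjusted p = 0.00273) at 24 h and -2.36 ± 0.23 (edgeR adjusted p = 1.02e-07) at 48 h, to 19.4% of its ON mean. The genes of its receptor were at or near the limit of detection, with 0 to 2 counts of Osmr, 1 to 9 of Il6st and 0 to 1 of Lifr per library.

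**Figure D2:**
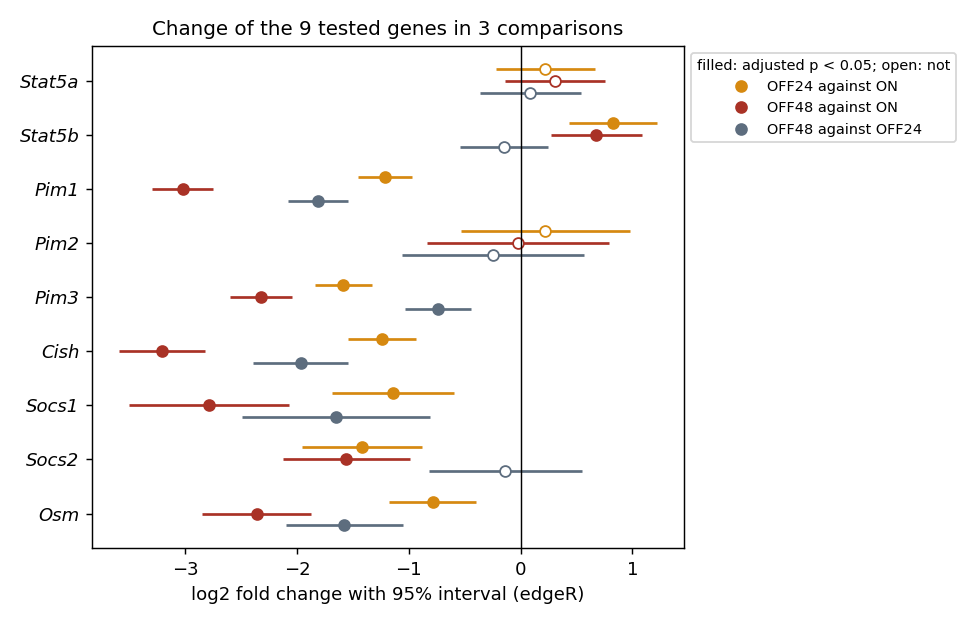
Log2 fold change (horizontal axis) with its 95% interval from edgeR for the 9 tested genes in each of the 3 comparisons; filled points have an adjusted p under 0.05. Pim1, Pim3, Cish, Socs1 and Osm have filled points below 0 in all 3 comparisons, and Socs2 in the comparisons with ON, while its OFF48 against OFF24 point is open at -0.14.

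The genes that fell differed in the estimated size of their step from 24 h to 48 h. Between 24 h and 48 h, 5 of the 9 tested genes fell further by edgeR's quasi-likelihood test, where 11.2% of all tested genes were lower, 9.99% higher and 21.1% called in either direction. None rose by edgeR, DESeq2 or limma-voom, nor at an unadjusted edgeR p under 0.05. The groups did not overlap for 5 of the 9, beside 38% of all tested genes. The further log2 change was -1.96 ± 0.20 for Cish (SE, edgeR adjusted p = 8.69e-07) and -1.81 ± 0.13 for Pim1 (edgeR adjusted p = 5.82e-09). It was -1.65 ± 0.40 for Socs1 (edgeR adjusted p = 0.00569) and -1.58 ± 0.25 for Osm (edgeR adjusted p = 0.000158). It was -0.74 ± 0.14 for Pim3 (edgeR adjusted p = 0.000876). For Socs2 the difference was -0.14 (95% interval -0.82 to 0.55, edgeR adjusted p = 0.828), an interval that includes the Pim3 value. Expressed as the part of the 48 h log2 change already present at 24 h, the values were 33.3% for Osm, 38.7% for Cish, 40.1% for Pim1 and 40.8% for Socs1, against 68.4% for Pim3 and 91.2% for Socs2. These percentages carry no interval, and their differences between genes were not tested.

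Ratios of 2 genes within a library do not depend on how libraries are scaled, and 6 such ratios were compared between the groups, 18 comparisons in all. With 3 libraries against 3 the exact permutation test (two-sided) cannot give a p below 0.1, which was adjusted to 0.138 over the 18, so that no ratio could pass a threshold of 0.05 and the values stand as descriptions with their intervals. The log2 ratio of Cish to Socs2 was 2.95, 2.53 and 2.49 in ON, 2.70, 2.64 and 3.15 in OFF24, and 1.16, 0.53 and 0.98 in OFF48. ON and OFF24 overlapped, while all OFF48 libraries lay lower. Its mean difference between OFF48 and ON was -1.77 (95% interval -2.34 to -1.19), and between OFF24 and ON 0.17 (-0.40 to 0.75). The ratio of Cish to Socs1 differed by -0.10 (-0.79 to 0.60) at 24 h and -0.51 (-1.21 to 0.19) at 48 h, the latter being -0.77 without ON replicate 2 and -0.28 without ON replicate 1. Between OFF48 and OFF24 it differed by -0.41 (-1.11 to 0.28), with no overlap of the groups, and by -0.23 without OFF24 replicate 1. With 2 counts in place of 0.5 added to each gene the differences were -0.84 between OFF48 and ON and -0.68 between OFF48 and OFF24.

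The log2 ratio of Pim1 to Pim3 was 1.35, 0.84 and 1.298 in ON, 1.60, 1.47 and 1.54 in OFF24, and 0.12, 0.82 and 0.56 in OFF48. It was highest in OFF24 and lowest in OFF48 without overlap, although ON replicate 2 came within a small distance of the highest OFF48 library. The difference was 0.38 (95% interval -0.15 to 0.90) at 24 h, -0.66 (-1.19 to -0.14) at 48 h, and -1.04 (-1.57 to -0.52) between OFF48 and OFF24. Without ON replicate 2 the 24 h difference was 0.22. The log2 ratio of Pim1 to Pim2 differed by -1.42 (-2.46 to -0.38) at 24 h and -2.95 (-3.99 to -1.91) at 48 h. Stat5a to Stat5b differed by -0.64 (-1.16 to -0.12) at 24 h and by -0.51 (-1.04 to 0.0083) at 48 h, every OFF library lying below every ON library. Without OFF48 replicate 2 the 48 h difference was -0.32.

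**Figure D3:**
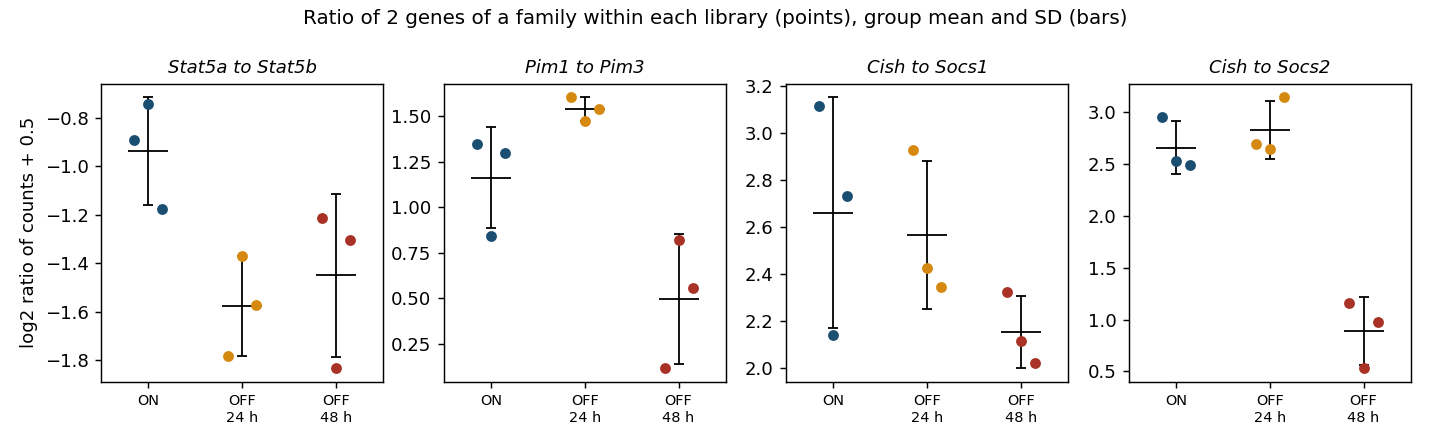
Log2 ratio of the counts (each plus 0.5) of 2 genes of a family within each library, for 4 gene pairs; points are libraries, bars the group mean and whiskers the SD, and the vertical axes do not start at 0. The ratio of Cish to Socs2 is near 2.66 in ON and 2.83 in OFF24 and 0.89 in OFF48, and the ratio of Pim1 to Pim3 is 1.54 in OFF24 and 0.50 in OFF48.

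Over the 9 libraries, which share the 3 groups and so any pattern between them, the 6 genes that fell had Pearson correlations of log2 CPM with each other from 0.778 (Socs2 and Osm) to 0.972 (Cish and Socs1). Stat5b had correlations of -0.371 (Cish) to -0.677 (Pim3) with them, and 0.646 with Stat5a. Of the tested genes with a mean of at least 10 CPM, those most like Pim1 were Eef1g, a translation elongation factor subunit (r = 0.996), Smyd2, a lysine methyltransferase (0.995), and Bri3bp (0.995). Those most like Cish were Impdh2, an enzyme of guanine nucleotide synthesis (0.995), Mrps6, a mitochondrial ribosomal protein (0.992), and Hspe1, a mitochondrial chaperonin (0.992). The genes most like Osm were Ola1 (0.987), Oxct1 (0.986) and Selenoh (0.982), and those most like Stat5a were Cherp (0.970), Lmnb2 (0.951) and Mcrs1 (0.944). By Spearman's rho 1 of the 3 was shared for Pim1 and 0 of the 3 for Cish, Osm and Stat5a, so the order of likeness depended on the measure.

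Upstream of STAT5, the 4 JAK kinases, which phosphorylate STATs at cytokine receptors, had edgeR adjusted p-values of 0.235 to 0.981 at 24 h. At 48 h 2 of them rose, where 23.4% of all tested genes were higher. Jak2 went from 23.0 to 39.4 CPM at 48 h (log2 0.80 ± 0.15, edgeR adjusted p = 0.000241). Jak1 rose by 0.32 ± 0.12 (edgeR adjusted p = 0.0434), a call that was lost under DESeq2, in a fit to the 2 groups alone and when any of 4 libraries was left out. Of 7 tested receptor subunits that signal through STAT5, 1 fell and 1 rose at 24 h, and 2 fell and 2 rose at 48 h. These shares are near those of all tested genes, 35.3% called at 24 h and 47.4% at 48 h. Csf3r, the receptor of the granulocyte growth factor G-CSF, rose from 1.83 CPM to 4.88 at 24 h (log2 1.45 ± 0.44, edgeR adjusted p = 0.0155) and 10.9 at 48 h (2.71 ± 0.39, edgeR adjusted p = 1.1e-05). The 24 h call of Csf3r was lost without ON replicate 1, at 1.23, or OFF24 replicate 3, at 1.31. Ghr, the growth hormone receptor, fell, with log2 values of -0.89 ± 0.24 (edgeR adjusted p = 0.00772) and -0.92 ± 0.25 (edgeR adjusted p = 0.00583), the 48 h call being lost without OFF48 replicate 3, at -0.62. Csf2rb2, a beta subunit of the IL-3 receptor, rose at 48 h (0.83 ± 0.18, edgeR adjusted p = 0.000887), and Il2rg, the common gamma chain, fell (-0.73 ± 0.17, edgeR adjusted p = 0.00145). Il6ra, the IL-6 receptor and the 1 tested gene of 6 in the oncostatin M and IL-6 list, rose from 5.37 CPM to 15.7 and 42.5 (log2 1.55 ± 0.23, edgeR adjusted p = 3.83e-05, and 2.92 ± 0.20, edgeR adjusted p = 1.21e-09).

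Of the other STAT genes, Stat3, which carries IL-6 and G-CSF signals, went from 173 CPM to 248.7 and 324 (log2 0.52 ± 0.10, edgeR adjusted p = 0.000335, and 0.91 ± 0.10, edgeR adjusted p = 2.84e-07). Stat6, used by IL-4, rose by 0.55 ± 0.14 (edgeR adjusted p = 0.00497) and 0.40 ± 0.15 (edgeR adjusted p = 0.0304). The 48 h call of Stat6 was lost under DESeq2, without a filter and when any of 4 libraries was left out. Stat4 was called at 24 h at 0.90 ± 0.31 (edgeR adjusted p = 0.0307), which was lost under DESeq2, limma on the authors' deposited table and no filter on low counts, when any of 4 libraries was left out, and without replicate 2 of every group.

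Socs4, Socs5, Socs6 and Socs7 had edgeR adjusted p-values of 0.401 to 0.981 over the 3 comparisons and a list median of 0.044 at 24 h and 0.019 at 48 h. Of the 6 ubiquitin ligase partners that SOCS boxes recruit, 2 fell and 1 rose at 24 h and 4 fell at 48 h, where 17.4% of all tested genes were lower and 17.8% higher at 24 h and 23.9% lower at 48 h. The gene that rose was Rnf7, a RING subunit (0.41 ± 0.14, edgeR adjusted p = 0.0243), and its call was lost under DESeq2 and without ON replicate 2 (0.28), OFF24 replicate 1 (0.36) or OFF24 replicate 3 (0.38). The scaffold Cul5 went from 70.9 CPM to 44.9 and 40.8 (log2 -0.65 ± 0.12, edgeR adjusted p = 0.000348, and -0.80 ± 0.13, edgeR adjusted p = 3.45e-05). The adaptors Elob (-0.53 ± 0.12, edgeR adjusted p = 0.0014) and Eloc (-0.48 ± 0.14, edgeR adjusted p = 0.00819) fell at 48 h, Eloc no longer passing without OFF48 replicate 1, at -0.38. Of 12 tested phosphatases, PIAS proteins and adaptors that restrain JAK-STAT signalling, 3 fell and 3 rose at 24 h, and 1 fell and 5 rose at 48 h. The 48 h share is near the 47.4% of all tested genes that were called. Ptpn6, the phosphatase SHP-1, rose by 0.50 ± 0.11 (edgeR adjusted p = 0.00185) and 0.72 ± 0.11 (edgeR adjusted p = 2.91e-05). Ptpn1, the phosphatase PTP1B, fell at both times, by log2 values of -0.54 ± 0.10 (edgeR adjusted p = 0.000422) and -0.44 ± 0.10 (edgeR adjusted p = 0.00158). Sh2b3, the adaptor LNK, rose at 48 h by 0.73 ± 0.15 (edgeR adjusted p = 0.000455). Cbl, a ubiquitin ligase for activated kinases, rose by 0.36 ± 0.10 at 24 h (edgeR adjusted p = 0.00798) and 0.61 ± 0.10 at 48 h (edgeR adjusted p = 4.73e-05).

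Of 10 further tested genes known as STAT5 targets, 7 fell and 2 rose at 24 h, and 6 fell and 2 rose at 48 h, with list medians of -0.75 and -0.46. Among all tested genes 17.4% were lower and 17.8% higher at 24 h, and 23.9% and 23.4% at 48 h. Ccnd2, the G1 cyclin D2, went from 30.1 CPM to 7.49 and 2.62 (log2 -2.01 ± 0.21, edgeR adjusted p = 5.73e-07, and -3.47 ± 0.26, edgeR adjusted p = 3.43e-09). Bcl2, the survival protein, went from 14.4 CPM to 3.89 and 1.67 (-1.81 ± 0.30, edgeR adjusted p = 0.000125, and -2.86 ± 0.36, edgeR adjusted p = 3.01e-06). Its OFF48 mean, with an SD of 1.12, lay near the limit of 3 counts, which was 0.883 to 2.26 CPM in those libraries. Cdkn1a, the cell cycle inhibitor p21, fell with Ccnd2 and Bcl2, from 156 CPM to 71.0 and 37.3 (-1.13 ± 0.15, edgeR adjusted p = 1.23e-05, and -2.13 ± 0.17, edgeR adjusted p = 8.12e-09). Gfi1, a transcriptional repressor of granulocyte development, rose from 163 CPM to 247 and 335 (0.60 ± 0.11, edgeR adjusted p = 0.000241, and 1.04 ± 0.11, edgeR adjusted p = 1.7e-07).

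Of the RNAs of 10 PIM substrates, 3 were lower and 2 higher at 24 h and 3 lower and 4 higher at 48 h. Among all tested genes 17.4% were lower and 17.8% higher at 24 h, and 23.9% and 23.4% at 48 h, so the substrates' counts are not a result about the list. Mybbp1a, a nucleolar MYB-binding protein, went from 108 CPM to 33.9 and 33.6 (log2 -1.67 ± 0.12, edgeR adjusted p = 9.32e-09, and -1.69 ± 0.13, edgeR adjusted p = 2.74e-09). Eif4ebp1, the translation repressor 4E-BP1, fell at both times (-0.49 ± 0.14, edgeR adjusted p = 0.00914, and -0.81 ± 0.15, edgeR adjusted p = 0.00013). Map3k5, the stress kinase ASK1, was at 1.90 CPM in ON and rose to 8.9998 at 48 h (2.26 ± 0.39, edgeR adjusted p = 8.61e-05). Cdc25a, a cell cycle phosphatase, was lower at 24 h (-0.33 ± 0.11, edgeR adjusted p = 0.0208) and higher at 48 h (0.47 ± 0.10, edgeR adjusted p = 0.00102). The 24 h call of Cdc25a was lost without ON replicate 3, at -0.28, or OFF24 replicate 3, at -0.33.

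**Figure D4:**
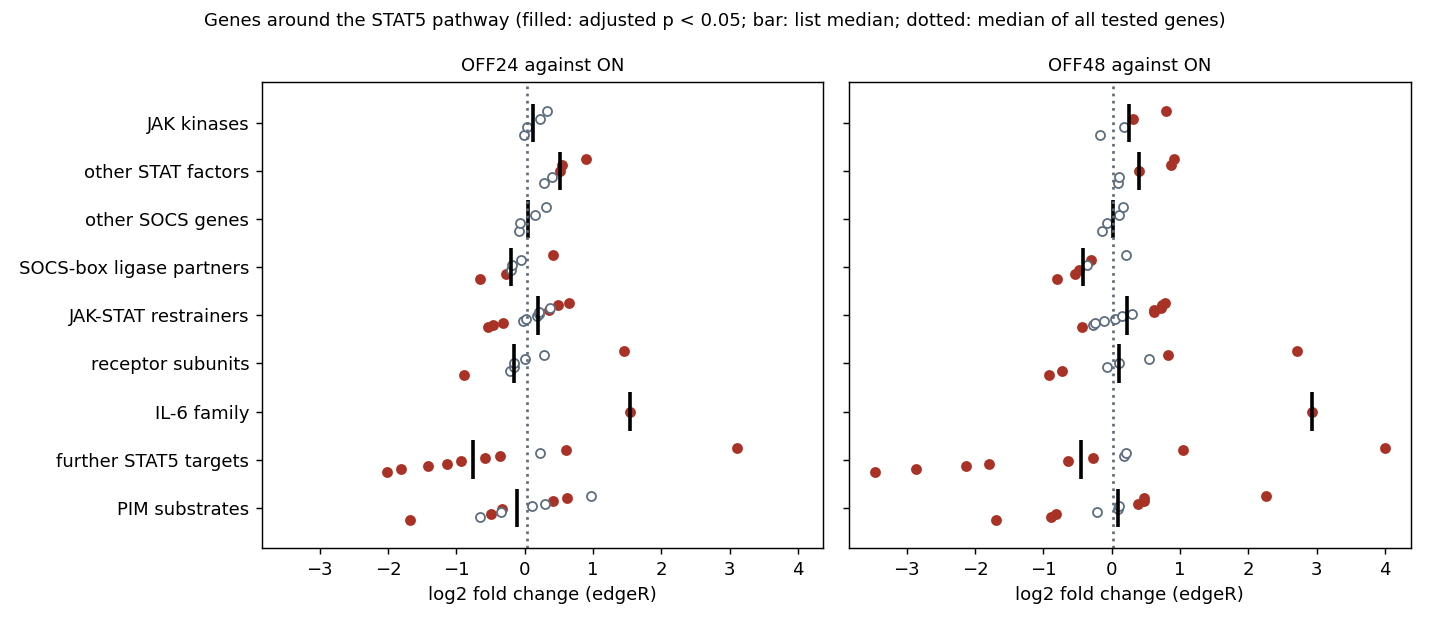
Log2 fold change (horizontal axis) of every tested gene in 9 lists around the STAT5 pathway at 24 h (left) and 48 h (right) against ON; filled points have an edgeR adjusted p under 0.05, black bars are list medians and the dotted line is the median of all tested genes. Further STAT5 target genes have medians of -0.75 and -0.46, and the other SOCS genes lie close to 0.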

How the data were processed

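The samples were 9 libraries, 3 per group, and groups and replicate numbers came from the sample titles. Per the labels' protocols, RNA came from TriZol lysates with a DNase step, and the Lexogen QuantSeq 3' kit was used for the libraries. Tools listed without roles in the submitters' processing notes include HISAT2 2.0.4, featureCounts (Subread 1.5.0-p3), cutadapt 1.5 and limma 3.42.2, with the build mm10. How multi-mapping reads were treated, the strand setting and the annotation are not given in the sources used. The authors deposited unnormalised read counts per gene symbol and a second table of 10552 rows of log2 values, which by its name the authors normalised with voom and limma, and which served as an alternative only.

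Counts were analysed with edgeR 4.0.16 in R 4.3.3: filterByExpr by group (10215 of 16962 rows with a count kept), TMM scaling, 1 mean per group over all 9 libraries (6 residual degrees of freedom), the robust quasi-likelihood test, and Benjamini-Hochberg adjustment over all tested genes at 0.05. The test was run first on simulated data, with few changed genes, balanced in direction, and 1 common spread for all genes. Those settings differ from the real data, so that run does not check the calls made here. CPM values are TMM-scaled. They compare a gene between libraries, and levels of different genes were not compared. Ratios used counts plus 0.5 and an exact permutation test. SE are those of edgeR's log2 fold changes. DESeq2 1.42.0 and limma 3.58.1 were alternatives, with other scalings, no filter, 2 groups alone, a replicate block and each library left out. The block was not the design used, because the labels do not say that a replicate number marks a shared culture or day. Named genes were the 10 members, up to 4 genes per list with the smallest p, and the 3 most correlated genes for Pim1, Cish, Osm and Stat5a. The genes, their lists and these rules were chosen with earlier results of these data known. Positions are from GENCODE M21 and promoters from RefSeq on GRCm38.p6. The result of 1 listed gene is not reported here.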

Additional observations from a re-analysis of the deposited data

Results flagged for a closer look

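The difference between the 24 h and 48 h groups was itself tested, as OFF48 against OFF24 in edgeR, and 5 of the genes passed, so their change from ON was of different size at the 2 times. The log2 values were -1.81 for Pim1, -0.735 for Pim3, -1.96 for Cish, -1.65 for Socs1 and -1.58 for Osm. In each of them all 3 OFF48 libraries lay below all 3 OFF24 libraries, as happened in either direction for 38% of all tested genes. Over 16 alternatives the adjusted p of these 5 differences stayed below 0.05, the highest being 0.0328 for Socs1.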

How the results depend on the processing

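The calls of the 6 genes that fell against ON held under all 16 alternatives per comparison, and so did that of Stat5b at 24 h. The number of genes higher at 48 h moved from 1 to between 0 (without OFF48 replicate 3) and 2 (without OFF48 replicate 2) when libraries were left out. Small uncalled log2 differences changed sign. Leaving out single libraries gave Pim2 values of -0.0836 to 0.51 at 24 h, -0.31 to 0.26 at 48 h and -0.49 to 0.031 in OFF48 against OFF24. It gave Stat5a -0.079 to 0.30 in OFF48 against OFF24, and the Cish to Socs1 ratio -0.36 to 0.13 at 24 h. Without replicate 2 of every group, Pim2 was -0.34 at 24 h and 0.13 in OFF48 against OFF24, Stat5a was -0.029 at 24 h, and Socs2 was 0.10 in OFF48 against OFF24. By limma-voom Pim2 was 0.0566 at 48 h, and by limma on the authors' deposited table Stat5a was -0.11 in OFF48 against OFF24. The cause was not tested. Of the values of named list genes that were called, 861 kept their side of the threshold and 51 did not.

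With the replicate number as a block, 6 genes were lower and 1 higher at 24 h and at 48 h, and 5 were lower in OFF48 against OFF24, with Stat5b at 0.84 and 0.65. Deviations of same-numbered libraries of different groups correlated at -0.0149 to 0.406, and those of differently numbered libraries at -0.286 to 0.19. Replicate 2 libraries correlated at 0.177 to 0.406 with each other and below 0 with every differently numbered library. Deviations within a group sum to 0 for each gene. The values below 0 therefore follow in part from the positive ones and are not a separate observation. What the replicate 2 libraries share was not tested. The numbers were not taken as pairs only because the labels do not say what they mark. The block changed no call on the 9 genes. No scaling moved the median of all genes by more than 0.1. Upper quartile scaling put the share of higher genes among those called in OFF48 against OFF24 at 39.9%, beside 47.2%. The planned ratios with Socs3 were not computed, because its counts were at or under 4 per library. Depth limits Socs3, Pim2, the OFF24 and OFF48 values of Socs2 (4 to 18 counts per library) and the OFF48 values of Socs1.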

Other observations

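Some STAT5 target genes outside the naming rule are given here, not all of them changed. They were chosen after their values were seen and do not stand for the rest of their list. Myc, the growth-promoting transcription factor, went from 22.7 CPM in ON to 8.57 at 24 h and 6.81 at 48 h (edgeR log2 -1.41 ± 0.22, adjusted p = 7.8e-05, and -1.79 ± 0.24, adjusted p = 6.79e-06), and the step between the times was not called (adjusted p = 0.384). Bcl2l1, which encodes the survival protein BCL-XL, was lower at 24 h (26.4 to 13.8 CPM, edgeR log2 -0.93 ± 0.16, adjusted p = 0.000246) and at 30.1 CPM at 48 h, a rise of 1.13 ± 0.17 over OFF24 (edgeR adjusted p = 7.66e-05) with a difference of 0.21 from ON (edgeR adjusted p = 0.275). Mcl1, another survival gene of the family, stood at 214, 251 and 242 CPM, with edgeR adjusted p-values of 0.12 and 0.191 against ON. Among PIM substrates, Cdkn1b, the cell cycle inhibitor p27, rose from 32.4 CPM to 49.9 and 44.9 (edgeR log2 0.63 ± 0.12, adjusted p = 0.000537, and 0.48 ± 0.13, adjusted p = 0.00412).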
